A study of Mus musculus with 25 samples.

Results

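The burning of fatty acids in the mouse colon was followed through a bout of dextran sulphate sodium (DSS) colitis with 33 genes, out of 25500 genes measured on the arrays. They are the enzymes that shorten fatty acids, the proteins that take up, bind, store and shuttle them, and genes switched on by the peroxisome proliferator-activated receptors (PPARs). The genes were chosen by name, as a pathway set, by a rule that uses no measured value, though with earlier results of these data known. All 33 had a probe that was kept for testing. DSS is a polymer that injures the colon lining when given in drinking water. Colon samples were taken from female C57BL/6j mice aged 8 weeks, either wild type (labelled WT) or Card9-/- on the same background (labelled KO). Card9 codes for an adaptor protein of myeloid cells that carries signals from fungal and bacterial receptors. Mice received 2% DSS for 7 days and then plain water for 5 days, and RNA came from before DSS (day 0), from day 7 and from day 12. There were 3 WT and 3 KO arrays at day 0, 5 WT and 4 KO arrays at day 7, and 5 of each at day 12, 25 in all.

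The labels make Card9 loss the difference between the genotypes, but the array's Card9 probe was brighter in every KO-labelled array (-1.52 or higher) than in every WT-labelled array (-2.93 or lower). The sources used here do not say which part of the gene was removed, so a probe outside that part checks nothing, and the genotypes are named by their labels throughout. Levels are log2 of the processed spot intensity minus the array's 75th percentile, so a level of 0 equals that percentile and a difference of 1 is a doubling. The probes of the 33 genes were well above background on all 25 arrays except those of Cd36 (21 arrays) and Fabp1 (18 arrays), and levels of different genes cannot be compared because each probe has its own brightness. All 18 epithelial marker genes on the list were measured, and their summed level lay between 2660 and 4720 times the 75th percentile in every group.

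In β-oxidation a fatty acid enters the cell, is bound to a carrier protein, and is passed into the mitochondrion by the carnitine shuttle. There a cycle of 4 steps removes carbons from its end, and the electrons released at the first step reach the respiratory chain through electron transfer flavoprotein. PPAR-alpha, encoded by Ppara, is a nuclear receptor that senses fatty acids and raises the genes of this pathway in liver, heart and gut, with Ppargc1a as a coactivator. In the colon, the surface cells draw much of their energy from the oxidation of butyrate, a short fatty acid made by bacteria.

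The DNA just upstream of 5 of these genes is shown, in 4 stretches. As described further on, Acadl rose where Acadm fell, and Fabp1 marked a few arrays. Hadha and Hadhb share 1 stretch. The bases come from RefSeq (GRCm38.p6) and are written 5′ to 3′. The stretches of Acadl, Acadm and Fabp1 are on the strand of the gene and end at the base before the start of transcription. The window of Acadl is chr1:66863310-66863559 on the minus strand, that of Acadm chr3:153944644-153944893 on the minus strand, and that of Fabp1 chr6:71199629-71199878 on the plus strand. Hadha and Hadhb encode both kinds of subunit of the trifunctional protein and start back to back, 272 bases apart, so their upstream windows overlap. The 228 bases shared by both windows, chr5:30155003-30155230, are shown on the plus strand, which is the strand of Hadhb.
Acadl: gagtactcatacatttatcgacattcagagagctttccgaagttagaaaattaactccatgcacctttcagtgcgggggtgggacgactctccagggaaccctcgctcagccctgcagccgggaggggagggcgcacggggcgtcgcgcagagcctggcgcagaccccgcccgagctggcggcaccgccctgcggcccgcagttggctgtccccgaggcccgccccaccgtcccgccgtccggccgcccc
Acadm: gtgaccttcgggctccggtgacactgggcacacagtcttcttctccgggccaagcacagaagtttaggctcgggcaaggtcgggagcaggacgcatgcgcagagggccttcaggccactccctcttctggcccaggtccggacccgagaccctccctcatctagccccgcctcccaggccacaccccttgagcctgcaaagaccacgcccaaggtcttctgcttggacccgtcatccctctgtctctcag
Hadha and Hadhb: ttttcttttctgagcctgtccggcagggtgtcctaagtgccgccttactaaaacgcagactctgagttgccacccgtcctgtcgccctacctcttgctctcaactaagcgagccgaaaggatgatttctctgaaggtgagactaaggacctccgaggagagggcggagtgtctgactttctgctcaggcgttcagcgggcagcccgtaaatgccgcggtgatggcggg
Fabp1: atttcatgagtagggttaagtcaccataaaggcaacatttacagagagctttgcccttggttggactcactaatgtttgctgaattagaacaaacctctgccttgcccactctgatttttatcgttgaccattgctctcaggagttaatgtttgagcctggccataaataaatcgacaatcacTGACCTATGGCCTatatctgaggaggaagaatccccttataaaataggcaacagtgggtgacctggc
The capitals in Fabp1 mark a relaxed direct repeat, AGGNCANAGGNCA, read on the opposite strand, whose window begins 67 bases before the start. PPARs bind with their partner, the retinoid X receptor, to repeats of this form. Both strands of the 250 upstream bases were searched in the 29 members that have an entry in the table. Fabp1 was the only one of the 29 with the relaxed repeat, which occurred in 0.338% of all 32851 promoters in the table. The strict repeat AGGTCANAGGTCA was in none of the 29 and in 0.0335% of all promoters, and TCAAGGTCA, the site of estrogen-related receptors, was in none of the 29 and in 0.387%. These counts describe letters in a short window and say nothing about binding, and PPAR sites can lie outside it.

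Most of the pathway was lower at day 7 than at day 0 in the KO-labelled arrays. There 17 of the 33 genes fell, 2 rose (Acadl and Plin2) and 14 did not pass the test, and the median change was -0.63. Over all genes, 19.6% passed in that comparison. The WT-labelled arrays had 1 gene that rose, Acadl, and none that fell, with a median change of -0.08, beside 4.32% of all genes. That WT-labelled count includes replicate 1 of day 7, an array that stood apart, as described below. Without it 1 gene rose and 1 fell, and 22 of the 33 were lower, against 18 with it. The KO-labelled counts rest on 3 day 0 arrays, of which replicates 1 and 2 stood apart in the same way. With a term for this difference in the model, described below, 13 genes fell and 3 rose under the KO label. With all 3 arrays that stood apart left out, 24 of the 33 were lower under the KO label, against 28 with them. A gene passed at an adjusted p under 0.05 in limma's moderated test, with Benjamini-Hochberg adjustment over all genes measured, and every adjusted p here is of that kind. The heat map of the 33 genes shows these changes array by array.

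**Figure D1:**
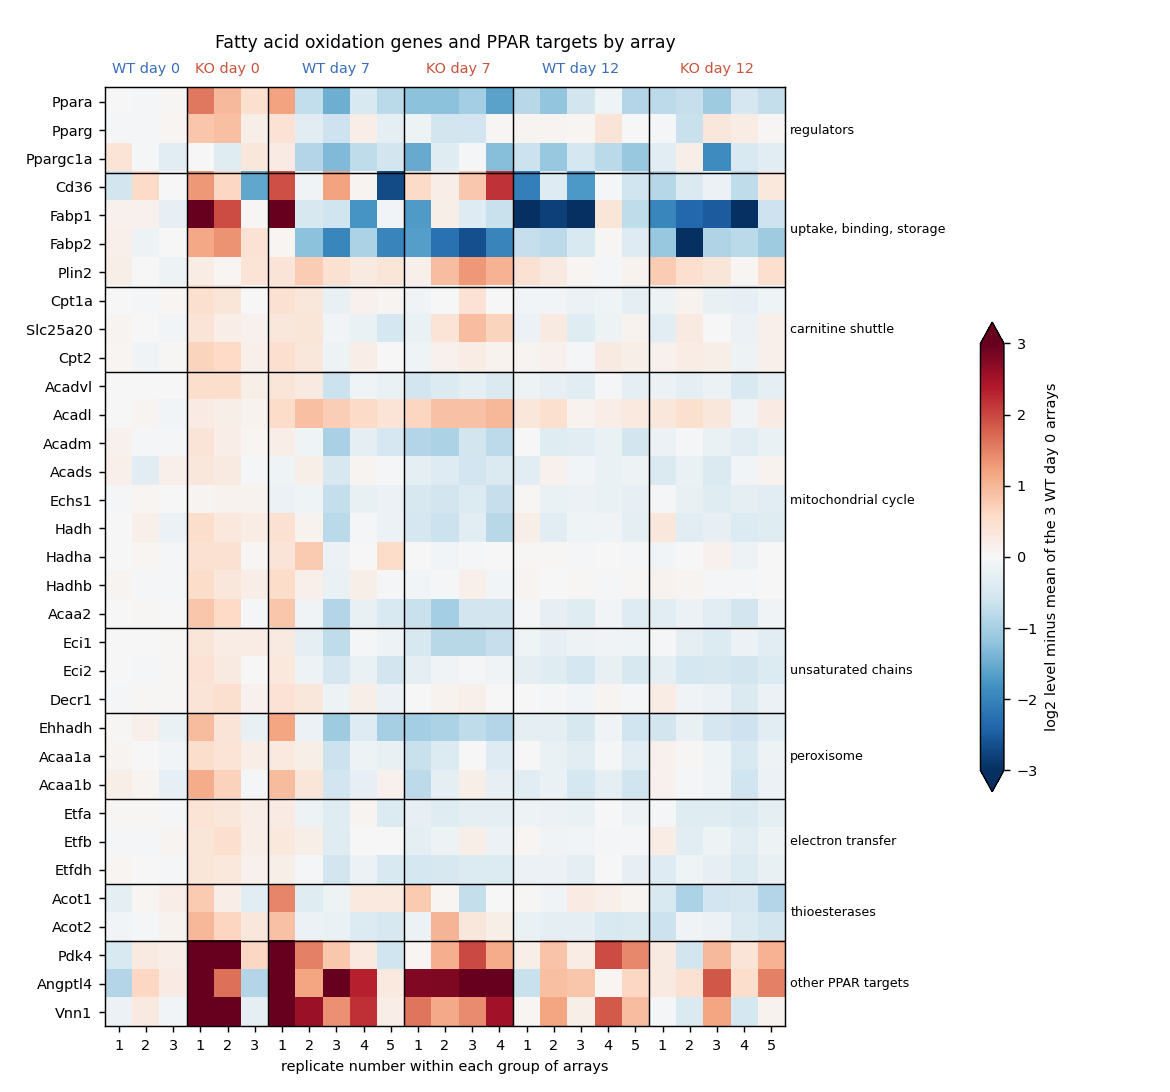
Each row is a gene, grouped by role, and each column an array, grouped by label and day. Colour gives the log2 level minus the mean of the 3 WT day 0 arrays, from -3 (blue) to 3 (red), with values beyond that range drawn at its ends. Replicates 1 and 2 of KO day 0 and replicate 1 of WT day 7 are red across most rows, and the KO day 7 columns are blue for most enzymes but red for Acadl.

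3 arrays stood apart from their groups, and they touch most results. Hox genes keep a record of position along the body axis, and the mean of 10 of them that are more active in the proximal colon, near the caecum, was -1.38 to -0.75 in replicates 1 and 2 of KO day 0 and in replicate 1 of WT day 7. The other 22 arrays had -3.86 to -2.01. Replicate 3 of KO day 0, at -3.34, lay by the 3 WT day 0 arrays, at -3.52 to -3.34. For 19 of the 33 genes all 3 arrays read higher than each of the other 22, against 1.83% of all genes. Where the tissue was cut along the colon is not given in the labels, so the changes from day 0 that passed under the KO label are also given with the Hox mean as a term in the model and without the 3 arrays, and the plot of alternatives shows them for all 33 genes. Without the 3 arrays the KO day 0 group is a single array, assumed to vary like the other groups. The mean log2 level of 7 Hox genes of the distal colon did not group the 3 arrays, but the summed level of these genes was low in all 3. The mean was -3.08 and -2.91 in replicates 1 and 2 of KO day 0, the lowest of all arrays. In replicate 1 of WT day 7 it was -0.24, the highest of all. The summed level was 5.86, 12.9 and 50.9 in the same order. In the other 22 arrays it ran from 29.8, in replicate 4 of WT day 12, to 188. Of these, only replicate 4 of WT day 12 lay below 50.9. Replicate 1 of WT day 7 had the highest mean of 12 fat-cell marker genes, 2.95, and of 11 smooth muscle genes, 4.33.

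The genes that separated these 3 arrays most were Fabp1, Vnn1 and Pdk4. Fabp1 codes for a liver-type fatty acid carrier found along the gut, Vnn1 for pantetheinase, an enzyme of coenzyme A turnover, and Pdk4 for a kinase that shuts the entry of pyruvate into the mitochondrion. Fabp1 measured -2.75, -2.75 and -3.1 in the WT-labelled arrays before DSS and 0.62, -0.92 and -2.83 in the KO-labelled ones. Fabp1 at day 7 read 0.41, -3.34, -3.47, -4.64 and -2.95 in the WT-labelled arrays and -4.56, -2.70, -3.25 and -3.54 in the KO-labelled ones. Fabp1 at day 12 came to -5.90, -5.67, -6.51, -2.51 and -3.62 under the WT label and to -4.82, -5.21, -5.36, -7.23 and -3.49 under the KO label. Outside the 3 arrays no Fabp1 value exceeded -2.51, and at day 12 the probe was well above background in only 2 of the 5 WT-labelled and 1 of the 5 KO-labelled arrays. Vnn1 measured 1.17, -0.16 and 1.97 in the 3 arrays and at most -0.72 in the other 22. Pdk4 measured 3.17, 2.56 and 1.86 in them and at most 0.80 elsewhere. Acadl, in contrast, read 2.72, 2.63 and 3.02 there, inside the span of 2.37 to 3.47 of the other 22.

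**Figure D2:**
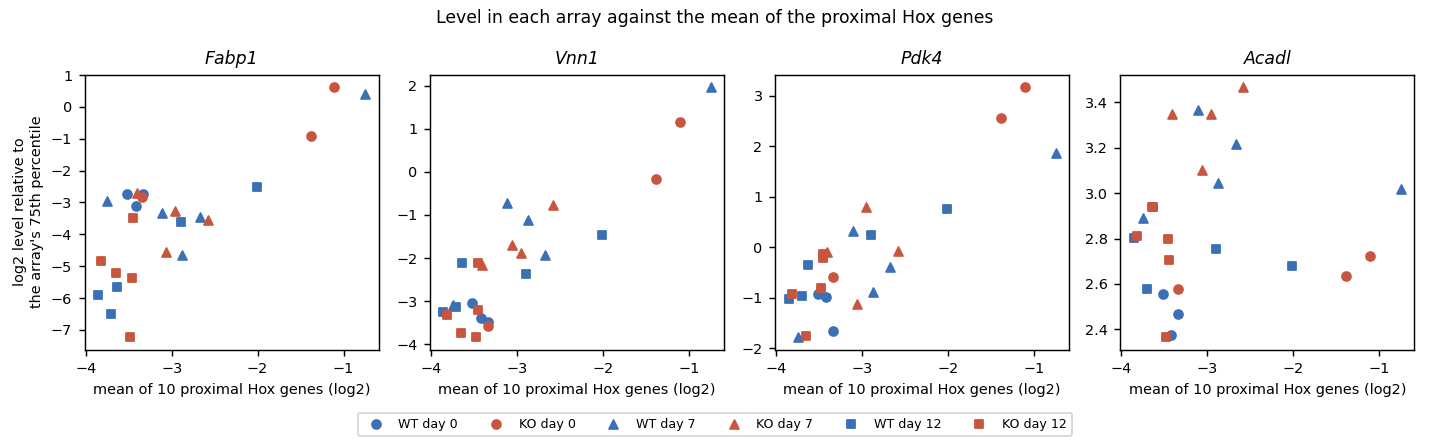
Each point is an array. The horizontal axis is the mean log2 level of 10 proximal Hox genes and the vertical axis the log2 level of Fabp1, Vnn1, Pdk4 or Acadl relative to the array's 75th percentile. Colour gives the genotype label and shape the day. The 3 arrays at the right are the highest in Fabp1, Vnn1 and Pdk4 and are in mid-range in Acadl.

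Among the regulators, Ppara and Pparg fell at day 7 under the KO label. Ppara measured 1.97, 1.91 and 1.98 in the WT-labelled arrays before DSS and 3.55, 2.93 and 2.43 in the KO-labelled ones. Ppara at day 7 read 3.16, 1.21, 0.49, 1.50 and 1.14 in the WT-labelled arrays and 0.73, 0.73, 0.94 and 0.36 in the KO-labelled ones. Ppara at day 12 came to 1.13, 0.77, 1.41, 1.81 and 1.08 under the WT label and to 1.16, 1.27, 0.88, 1.45 and 1.24 under the KO label. All 4 KO-labelled values of day 7 lay below all 3 of day 0, with a change of -2.28 ± 0.40 (adjusted p = 0.000502), or 4.85-fold lower. The WT-labelled change was -0.45 ± 0.38 (adjusted p = 0.602), with replicate 1 above and the other 4 below every day 0 value. The other Ppara probes changed by -2.19 and -1.17 under the KO label. With the Hox mean in the model the KO-labelled change was -1.73 (adjusted p = 0.00106), and without the 3 arrays it was -1.74 (adjusted p = 0.00887).

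Pparg, the receptor that butyrate-using surface cells of the colon carry at high level, moved less. Pparg measured 3.81, 3.81 and 3.90 in the WT-labelled arrays before DSS and 4.67, 4.74 and 4.02 in the KO-labelled ones. Pparg at day 7 read 4.27, 3.51, 3.22, 4.03 and 3.58 in the WT-labelled arrays and 3.69, 3.29, 3.27 and 3.88 in the KO-labelled ones. Pparg at day 12 came to 3.92, 3.92, 3.91, 4.23 and 3.85 under the WT label and to 3.78, 3.18, 4.19, 4.06 and 3.87 under the KO label. Its KO-labelled change at day 7 was -0.94 ± 0.25 (adjusted p = 0.00922), and every day 7 value lay below every day 0 value. The WT-labelled change was -0.12 ± 0.23. The KO-labelled change was -0.66 (adjusted p = 0.0426) with the Hox mean in the model, and without the 3 arrays it was -0.49 (adjusted p = 0.471) and did not pass. Ppargc1a did not pass in any comparison, with levels between 0.86 and 3.14 over all arrays and changes at day 7 of -0.66 ± 0.40 and -0.78 ± 0.42 under the WT and KO labels.

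In uptake, binding and storage the genes went different ways. Fabp2, the intestinal fatty acid carrier of absorptive cells, fell furthest of the 33 at day 7 under the KO label, while Plin2, which coats lipid droplets, rose. Fabp2 measured 7.63, 7.33 and 7.48 in the WT-labelled arrays before DSS and 8.63, 8.83 and 7.92 in the KO-labelled ones. Fabp2 at day 7 read 7.55, 6.26, 5.52, 6.53 and 5.50 in the WT-labelled arrays and 5.82, 5.24, 4.85 and 5.49 in the KO-labelled ones. Fabp2 at day 12 came to 6.79, 6.68, 7.03, 7.52 and 7.10 under the WT label and to 6.34, 4.35, 6.57, 6.66 and 6.41 under the KO label. The KO-labelled change was -3.11 ± 0.48 (adjusted p = 0.00016), 8.63-fold lower, and the groups did not overlap. Under the WT label 4 of the 5 day 7 values lay below all 3 day 0 values, for a change of -1.21 ± 0.46 (adjusted p = 0.155). The KO-labelled change with the Hox mean in the model was -2.57 (adjusted p = 0.00062). Without the 3 arrays the changes were -2.57 (adjusted p = 0.0288) under the KO label and -1.53 (adjusted p = 0.0441) under the WT label.

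Plin2 measured 4.44, 4.25 and 4.10 in the WT-labelled arrays before DSS and 4.49, 4.33 and 4.68 in the KO-labelled ones. Plin2 at day 7 read 4.65, 5.02, 4.71, 4.53 and 4.64 in the WT-labelled arrays and 4.41, 5.18, 5.56 and 5.30 in the KO-labelled ones. Plin2 at day 12 came to 4.73, 4.54, 4.32, 4.22 and 4.36 under the WT label and to 5.02, 4.78, 4.64, 4.32 and 4.77 under the KO label. Plin2 was above its own KO day 0 range in 3 of the 4 KO-labelled arrays of day 7, with replicate 1 inside that range, and the change was 0.62 ± 0.21 (adjusted p = 0.0416). Replicates 2 and 3 of KO day 7 held pancreatic RNA, and without the 4 arrays that held it Plin2 did not pass. The WT-labelled change, 0.45 ± 0.20 (adjusted p = 0.247), pointed the same way without passing. The KO-labelled call was lost both with the Hox mean in the model, at 0.52 (adjusted p = 0.124), and without the 3 arrays, at 0.43 (adjusted p = 0.544). Cd36, a membrane protein that takes up long-chain fatty acids and is also found on macrophages and fat cells, ranged from -5.50 to -0.64 and did not pass in any comparison as reported. Its KO-labelled change at day 7, 0.82 ± 0.82, became 2.10 with the Hox mean in the model (adjusted p = 0.00926). Fabp1 had KO-labelled changes of -2.47 ± 1.08 at day 7 and, at day 12, -4.18 ± 1.03 (adjusted p = 0.0174). The day 12 value sets day 0 against a group in which the probe was well above background in 1 of 5 arrays, so its size is uncertain. Without the 3 arrays, which include replicates 1 and 2 of day 0, the changes were -0.68 (adjusted p = 0.856) and -2.39 (adjusted p = 0.609), and with the Hox mean in the model they were -0.95 (adjusted p = 0.495) and -1.85 (adjusted p = 0.343).

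The carnitine shuttle did not pass in any comparison. Cpt1a, which loads fatty acids onto carnitine and sets the pace of their entry, had a change of 0.16 ± 0.14 at day 7 under the WT label and of -0.20 ± 0.15 under the KO label. Slc25a20, the carrier across the inner membrane, had values of -0.02 ± 0.22 and 0.20 ± 0.23. Cpt2, which releases the fatty acid inside, had 0.18 ± 0.14 and -0.39 ± 0.15 (adjusted p = 0.0715). Levels over the 25 arrays ran from 3.75 to 4.51 for Cpt1a, from 1.72 to 3.16 for Slc25a20 and from 4.33 to 5.15 for Cpt2, and the highest Slc25a20 values, 2.91 and 3.16, were both KO-labelled arrays of day 7.

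The mitochondrial cycle was split at its first step. 4 of the acyl-CoA dehydrogenases, each for a different chain length, were on the list: Acadvl for very long, Acadl for long, Acadm for medium and Acads for short chains. Acadl rose under both labels at day 7, while Acadvl, Acadm and Acads fell under the KO label. Acadl measured 2.47, 2.56 and 2.38 in the WT-labelled arrays before DSS and 2.72, 2.63 and 2.58 in the KO-labelled ones. Acadl at day 7 read 3.02, 3.37, 3.21, 3.04 and 2.89 in the WT-labelled arrays and 3.1, 3.35, 3.35 and 3.47 in the KO-labelled ones. Acadl at day 12 came to 2.80, 2.94, 2.58, 2.68 and 2.75 under the WT label and to 2.81, 2.94, 2.80, 2.37 and 2.70 under the KO label. Every day 7 value was above every day 0 value under each label. The change was 0.64 ± 0.13 (adjusted p = 0.00606) under the WT label and 0.67 ± 0.13 (adjusted p = 0.00119) under the KO label, that is 1.56-fold and 1.59-fold higher. The difference between these changes was 0.03 ± 0.18 with a sign that turned in some alternatives.

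Acadl was the only gene of the 33 called under both labels at day 7, and both calls held when each of the 25 arrays was left out in turn. The WT-labelled call was lost when only the WT-labelled arrays of day 0 and day 7 were fitted (0.64, adjusted p = 0.156). It was also called, at 0.67 and 0.74, with the Hox mean in the model and without the 3 arrays (adjusted p = 0.00395 and 0.0498) under the KO label. By day 12 it had fallen again under the KO label, by 0.59 from day 7 (adjusted p = 0.00523), and the WT-labelled change from day 7 was -0.36 ± 0.11 (adjusted p = 0.146).

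Acadm measured 4.81, 4.63 and 4.63 in the WT-labelled arrays before DSS and 5.08, 4.90 and 4.75 in the KO-labelled ones. Acadm at day 7 read 4.89, 4.56, 3.71, 4.38 and 4.19 in the WT-labelled arrays and 3.81, 3.74, 4.14 and 3.91 in the KO-labelled ones. Acadm at day 12 came to 4.69, 4.32, 4.37, 4.49 and 4.14 under the WT label and to 4.51, 4.64, 4.49, 4.37 and 4.49 under the KO label. The KO-labelled arrays of day 7 lay below all day 0 arrays of either label, and the change was -1.01 ± 0.19 (adjusted p = 0.000813), or 2.01-fold lower. Under the WT label the change was -0.34 ± 0.18 (adjusted p = 0.351), and 4 of the 5 values lay below all 3 of day 0. From day 7 to day 12 Acadm rose under the KO label by 0.60 ± 0.17 (adjusted p = 0.0308). With the Hox mean in the model the fall at day 7 was -0.87 (adjusted p = 0.00455), and without the 3 arrays the change was -0.85 (adjusted p = 0.0567).

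**Figure D3:**
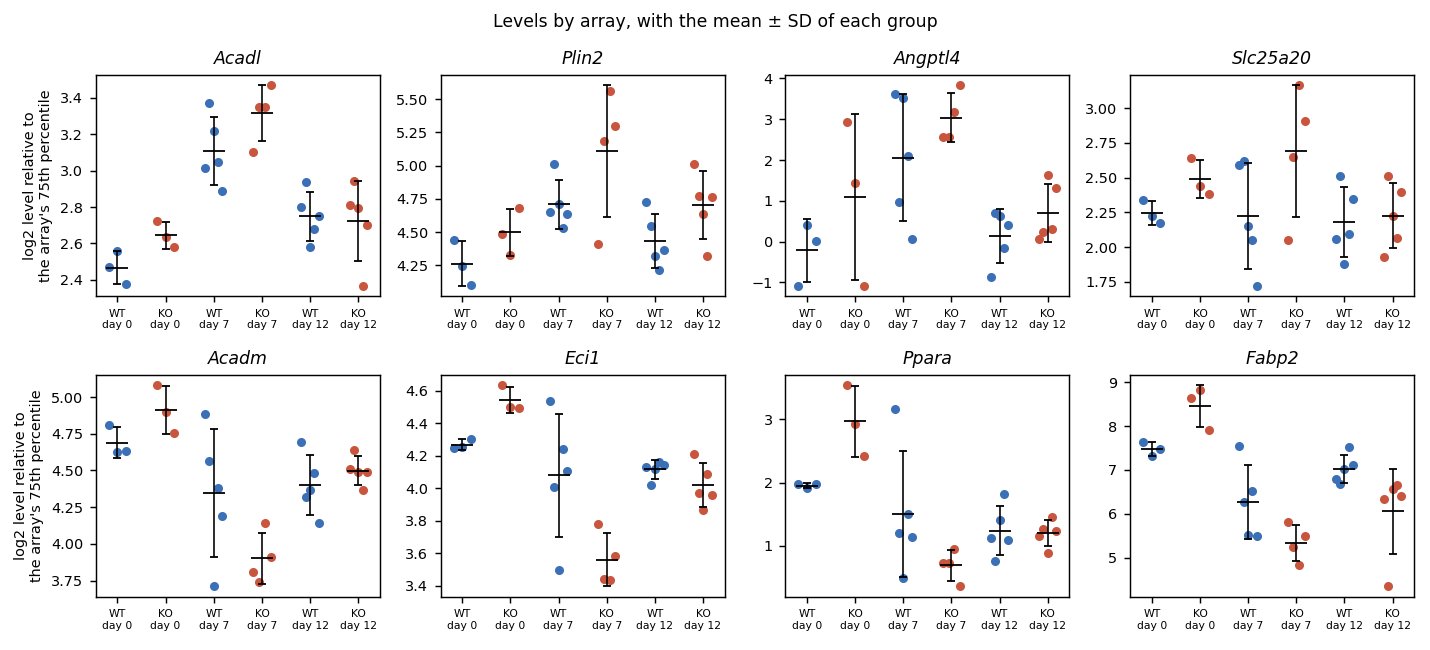
Each panel is a gene and each point an array, with the log2 level relative to the array's 75th percentile on the vertical axis and the 6 groups on the horizontal axis; bars give the mean ± SD. Acadl is higher at day 7 than at day 0 under both labels without overlap, and Acadm, Eci1, Ppara and Fabp2 have their lowest group mean in the KO-labelled arrays of day 7.

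Acadvl measured 5.88, 5.90 and 5.86 in the WT-labelled arrays before DSS and 6.40, 6.42 and 6.04 in the KO-labelled ones. Acadvl at day 7 read 6.23, 6.14, 5.23, 5.75 and 5.67 in the WT-labelled arrays and 5.32, 5.47, 5.60 and 5.45 in the KO-labelled ones. Acadvl at day 12 came to 5.72, 5.64, 5.56, 5.81 and 5.58 under the WT label and to 5.71, 5.58, 5.71, 5.42 and 5.61 under the KO label. Acadvl at day 7 was below every day 0 value under the KO label, with a change of -0.83 ± 0.17 (adjusted p = 0.00157), whereas under the WT label replicates 1 and 2 were above and the other 3 below the day 0 values, for -0.08 ± 0.16. Acads measured 2.64, 2.17 and 2.64 in the WT-labelled arrays before DSS and 2.82, 2.74 and 2.42 in the KO-labelled ones. Acads at day 7 read 2.35, 2.64, 1.99, 2.57 and 2.46 in the WT-labelled arrays and 2.22, 2.08, 1.91 and 2.06 in the KO-labelled ones. Acads at day 12 came to 2.17, 2.60, 2.41, 2.29 and 2.33 under the WT label and to 2.05, 2.27, 2.04, 2.41 and 2.59 under the KO label. Acads changed by -0.60 ± 0.17 (adjusted p = 0.015) under the KO label, and the WT-labelled value was -0.08 ± 0.16. Acadvl was at -0.68 (adjusted p = 0.00814) and Acads at -0.58 (adjusted p = 0.0385) under the KO label with the Hox mean in the model. Without the 3 arrays the KO-labelled changes were -0.58 for Acadvl and -0.36 for Acads, and neither passed (adjusted p = 0.147 and 0.515).

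Genes of the later steps fell under the KO label as well, among them Echs1, the short-chain hydratase of the second step. Echs1 measured 4.54, 4.65 and 4.58 in the WT-labelled arrays before DSS and 4.68, 4.69 and 4.68 in the KO-labelled ones. Echs1 at day 7 read 4.41, 4.46, 3.88, 4.38 and 4.42 in the WT-labelled arrays and 4.11, 4.04, 4.18 and 3.89 in the KO-labelled ones. Echs1 at day 12 came to 4.62, 4.40, 4.41, 4.38 and 4.35 under the WT label and to 4.53, 4.36, 4.22, 4.33 and 4.26 under the KO label. Its KO-labelled change at day 7 was -0.63 ± 0.12 (adjusted p = 0.000916), with the 3 KO-labelled day 0 arrays almost equal, and it was about as large with the Hox mean in the model (-0.66, adjusted p = 0.00203) and without the 3 arrays (-0.63, adjusted p = 0.0658). The WT-labelled change was -0.28 ± 0.11 (adjusted p = 0.199).

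Hadh, the short-chain dehydrogenase of the third step, had the same direction. Hadh measured 4.86, 5.00 and 4.68 in the WT-labelled arrays before DSS and 5.38, 5.17 and 5.07 in the KO-labelled ones. Hadh at day 7 read 5.29, 4.96, 4.04, 4.79 and 4.67 in the WT-labelled arrays and 4.34, 4.20, 4.53 and 4.00 in the KO-labelled ones. Hadh at day 12 came to 5.03, 4.50, 4.71, 4.74 and 4.56 under the WT label and to 5.18, 4.52, 4.59, 4.44 and 4.47 under the KO label. The KO-labelled day 7 arrays were all below the day 0 arrays, with a change of -0.94 ± 0.22 (adjusted p = 0.00519), against -0.09 ± 0.21 under the WT label. Acaa2, the thiolase of the last step, read as follows. Acaa2 measured 5.58, 5.63 and 5.59 in the WT-labelled arrays before DSS and 6.43, 6.19 and 5.57 in the KO-labelled ones. Acaa2 at day 7 read 6.42, 5.48, 4.72, 5.38 and 5.14 in the WT-labelled arrays and 4.94, 4.59, 5.04 and 5.04 in the KO-labelled ones. Acaa2 at day 12 came to 5.54, 5.36, 5.24, 5.53 and 5.22 under the WT label and to 5.29, 5.43, 5.29, 5.06 and 5.49 under the KO label. Its KO-labelled change was -1.16 ± 0.26 (adjusted p = 0.00349). Replicate 1 of the WT-labelled day 7 arrays, at 6.42, was close to the first KO-labelled day 0 array, at 6.43. Hadh was at -0.85 (adjusted p = 0.0218) and Acaa2 at -0.82 (adjusted p = 0.0116) with the Hox mean in the model. The changes of Hadh and Acaa2 without the 3 arrays were -0.80 and -0.67 (adjusted p = 0.159 and 0.125).

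The trifunctional protein, which carries out the last 3 steps on long chains, differed little between days. Hadhb measured 5.07, 4.97 and 4.96 in the WT-labelled arrays before DSS and 5.56, 5.34 and 5.20 in the KO-labelled ones. Hadhb at day 7 read 5.56, 5.16, 4.81, 5.17 and 4.94 in the WT-labelled arrays and 4.93, 4.96, 5.15 and 4.93 in the KO-labelled ones. Hadhb at day 12 came to 5.08, 5.02, 5.03, 4.94 and 5.05 under the WT label and to 5.11, 5.08, 4.97, 4.94 and 4.99 under the KO label. Hadhb changed by -0.37 ± 0.13 (adjusted p = 0.0477) at day 7 under the KO label, and the WT-labelled value was 0.13 ± 0.12. The KO-labelled call was lost with the Hox mean in the model, at -0.25 (adjusted p = 0.188), without the 3 arrays, at -0.20 (adjusted p = 0.512), and in 20 of the 25 fits that each left out 1 array. Hadha, transcribed away from the same 228 bases, had values of -0.36 ± 0.16 (adjusted p = 0.139) and 0.31 ± 0.16, with levels from 2.04 to 3.01.

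Unsaturated fatty acids need extra enzymes that move or remove a double bond. Eci1, the mitochondrial enoyl-CoA isomerase, fell. Eci1 measured 4.25, 4.25 and 4.31 in the WT-labelled arrays before DSS and 4.64, 4.50 and 4.49 in the KO-labelled ones. Eci1 at day 7 read 4.54, 4.01, 3.50, 4.24 and 4.11 in the WT-labelled arrays and 3.78, 3.44, 3.43 and 3.58 in the KO-labelled ones. Eci1 at day 12 came to 4.13, 4.02, 4.12, 4.16 and 4.15 under the WT label and to 4.21, 3.97, 3.87, 4.09 and 3.96 under the KO label. All 4 KO-labelled values of day 7 lay below every value of day 0 and day 12, and the change was -0.98 ± 0.16 (adjusted p = 0.000219), 1.98-fold lower. The WT-labelled change was -0.19 ± 0.15 (adjusted p = 0.573). The call under the KO label held with the Hox mean in the model (-0.88, adjusted p = 0.00132) and without the 3 arrays (-0.93, adjusted p = 0.0175). Eci1 rose again by 0.46 ± 0.14 to day 12 (adjusted p = 0.0451), a call lost in 21 of the 25 fits that each left out 1 array.

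Eci2 measured 4.16, 4.10 and 4.20 in the WT-labelled arrays before DSS and 4.58, 4.43 and 4.17 in the KO-labelled ones. Eci2 at day 7 read 4.48, 4.01, 3.66, 3.95 and 3.60 in the WT-labelled arrays and 3.86, 4.06, 4.12 and 4.04 in the KO-labelled ones. Eci2 at day 12 came to 3.88, 3.79, 3.63, 3.92 and 3.67 under the WT label and to 3.87, 3.63, 3.67, 3.61 and 3.75 under the KO label. Eci2, the second isomerase, had KO-labelled changes of -0.38 ± 0.16 (adjusted p = 0.0968) at day 7 and -0.69 ± 0.15 (adjusted p = 0.00748) at day 12. The day 12 call was lost with the Hox mean in the model, at -0.40 (adjusted p = 0.173), and without the 3 arrays, at -0.47 (adjusted p = 0.308). Decr1, the dienoyl-CoA reductase, did not pass at its brighter probe (-0.27 ± 0.15 at day 7 under the KO label), while its second probe gave -0.56 (adjusted p = 0.00722 over all probes).

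All 3 peroxisomal enzymes fell at day 7 under the KO label. Ehhadh, the bifunctional enzyme of peroxisomal β-oxidation and a much used marker of PPAR-alpha activity in liver, had these values. Ehhadh measured 1.42, 1.53 and 1.17 in the WT-labelled arrays before DSS and 2.32, 1.75 and 1.16 in the KO-labelled ones. Ehhadh at day 7 read 2.56, 1.20, 0.30, 0.99 and 0.37 in the WT-labelled arrays and 0.35, 0.43, 0.61 and 0.51 in the KO-labelled ones. Ehhadh at day 12 came to 1.07, 1.08, 0.89, 1.27 and 0.78 under the WT label and to 0.81, 1.15, 0.86, 0.76 and 1.02 under the KO label. Its change was -1.27 ± 0.36 (adjusted p = 0.0149), and every day 7 value lay below every day 0 value, whereas under the WT label replicate 1 was the highest of all arrays and the change was -0.29 ± 0.34. The KO-labelled call was lost with the Hox mean in the model, at -0.77 (adjusted p = 0.0546), and without the 3 arrays, at -0.69 (adjusted p = 0.178).

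Acaa1a measured 6.41, 6.32 and 6.25 in the WT-labelled arrays before DSS and 6.85, 6.74 and 6.52 in the KO-labelled ones. Acaa1a at day 7 read 6.61, 6.50, 5.69, 6.18 and 6.11 in the WT-labelled arrays and 5.67, 5.92, 6.34 and 5.94 in the KO-labelled ones. Acaa1a at day 12 came to 6.31, 6.14, 6.00, 6.26 and 6.02 under the WT label and to 6.47, 6.37, 6.21, 5.88 and 6.19 under the KO label. Acaa1a, a peroxisomal thiolase, changed by -0.73 ± 0.19 (adjusted p = 0.00802) under the KO label, and the WT-labelled value was -0.11 ± 0.18. Acaa1b measured 2.31, 2.20 and 1.88 in the WT-labelled arrays before DSS and 3.25, 2.82 and 2.10 in the KO-labelled ones. Acaa1b at day 7 read 3.07, 2.51, 1.56, 1.89 and 2.26 in the WT-labelled arrays and 1.34, 1.86, 2.31 and 1.88 in the KO-labelled ones. Acaa1b at day 12 came to 1.81, 1.93, 1.61, 1.83 and 1.53 under the WT label and to 2.26, 2.10, 2.04, 1.53 and 1.96 under the KO label. Acaa1b, its close copy, changed by -0.88 ± 0.30 (adjusted p = 0.0424) under the KO label, with 0.13 ± 0.29 under the WT label, and replicate 3 of KO day 7, at 2.31, lay above the third day 0 array, at 2.10. With the Hox mean in the model the KO-labelled change was -0.62 (adjusted p = 0.0357) for Acaa1a, and for Acaa1b it was -0.60 (adjusted p = 0.174) and no longer passed. Neither gene passed without the 3 arrays, at -0.55 (adjusted p = 0.277) and -0.25 (adjusted p = 0.786). The sequences of Acaa1a and Acaa1b are so alike, as are those of Acot1 and Acot2, that a probe of one may also read the other, and this was not tested.

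Electron transfer flavoprotein and its dehydrogenase were below day 0 under the KO label at day 7 and at day 12, with 3 of 3 genes called on each day. None of these calls held without the 3 arrays, and with the Hox mean in the model those of Etfa and Etfdh at day 7 did. Etfa measured 5.19, 5.20 and 5.11 in the WT-labelled arrays before DSS and 5.57, 5.50 and 5.36 in the KO-labelled ones. Etfa at day 7 read 5.42, 5.02, 4.80, 5.26 and 4.75 in the WT-labelled arrays and 4.92, 4.80, 4.88 and 4.91 in the KO-labelled ones. Etfa at day 12 came to 5.02, 5.00, 4.97, 5.16 and 5.02 under the WT label and to 5.13, 4.81, 4.80, 4.74 and 4.90 under the KO label. Etfa changed by -0.60 ± 0.13 (adjusted p = 0.00252) at day 7 and by -0.60 ± 0.12 (adjusted p = 0.00593) at day 12, and the later groups overlapped. Etfb measured 6.51, 6.50 and 6.63 in the WT-labelled arrays before DSS and 6.92, 7.04 and 6.75 in the KO-labelled ones. Etfb at day 7 read 6.85, 6.73, 6.19, 6.56 and 6.55 in the WT-labelled arrays and 6.28, 6.39, 6.73 and 6.38 in the KO-labelled ones. Etfb at day 12 came to 6.61, 6.45, 6.47, 6.48 and 6.48 under the WT label and to 6.78, 6.21, 6.40, 6.23 and 6.40 under the KO label. Etfb changed by -0.46 ± 0.15 (adjusted p = 0.0313) and -0.50 ± 0.14 (adjusted p = 0.0341), and its replicate 3 of KO day 7, at 6.73, almost reached the third day 0 array.

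Etfdh measured 4.09, 4.05 and 3.98 in the WT-labelled arrays before DSS and 4.41, 4.35 and 4.17 in the KO-labelled ones. Etfdh at day 7 read 4.22, 3.99, 3.50, 3.87 and 3.58 in the WT-labelled arrays and 3.52, 3.55, 3.62 and 3.64 in the KO-labelled ones. Etfdh at day 12 came to 3.87, 3.87, 3.76, 4.05 and 3.78 under the WT label and to 3.66, 3.91, 3.78, 3.64 and 3.82 under the KO label. Etfdh, which passes the electrons on to ubiquinone, had no overlap between day 0 and either later day under the KO label and changed by -0.73 ± 0.13 (adjusted p = 0.000632) and -0.55 ± 0.13 (adjusted p = 0.0117). The WT-labelled changes at day 7 were -0.12 ± 0.12, 0.03 ± 0.14 and -0.21 ± 0.13 for Etfa, Etfb and Etfdh, and none passed. With the Hox mean in the model the KO-labelled changes at day 7 were -0.46 (adjusted p = 0.0112) for Etfa, -0.39 (adjusted p = 0.0966) for Etfb and -0.58 (adjusted p = 0.00247) for Etfdh. In the same order they were -0.48 (adjusted p = 0.121), -0.31 (adjusted p = 0.497) and -0.59 (adjusted p = 0.0553) without the 3 arrays. At day 12 the changes were -0.39 (adjusted p = 0.145), -0.40 (adjusted p = 0.274) and -0.32 (adjusted p = 0.234) with the Hox mean, and -0.48 (adjusted p = 0.297), -0.35 (adjusted p = 0.697) and -0.41 (adjusted p = 0.419) without the 3 arrays.

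The thioesterases Acot1 and Acot2, which free fatty acids from coenzyme A, did not pass at day 7. Acot2 measured -3.01, -2.96 and -2.82 in the WT-labelled arrays before DSS and -1.94, -2.28 and -2.58 in the KO-labelled ones. Acot2 at day 7 read -2.05, -3.11, -3.13, -3.34 and -3.40 in the WT-labelled arrays and -3.09, -1.90, -2.59 and -2.75 in the KO-labelled ones. Acot2 at day 12 came to -3.13, -3.20, -3.23, -3.38 and -3.36 under the WT label and to -3.57, -3.04, -3.1, -3.35 and -3.47 under the KO label. Acot2 was lower than all 3 day 0 arrays in each KO-labelled array of day 12, with a change of -1.04 ± 0.26 (adjusted p = 0.0175). The call was lost with the Hox mean in the model, at -0.67 (adjusted p = 0.277), and without the 3 arrays, at -0.72 (adjusted p = 0.408). Acot1 ranged from -0.22 to 2.19, and its difference between labels at day 12 was -0.76 ± 0.29 (adjusted p = 0.389).

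The remaining PPAR targets varied widely within groups. Angptl4, a secreted inhibitor of lipoprotein lipase that is also raised by low oxygen, read -1.09, 0.42 and 0.03 before DSS and 3.61, 0.97, 3.53, 2.11 and 0.07 at day 7 under the WT label. Under the KO label Angptl4 was 2.93, 1.44 and -1.08 and then 2.57, 2.58, 3.18 and 3.85. The changes, 2.28 ± 0.79 (adjusted p = 0.114) and 1.95 ± 0.83 (adjusted p = 0.109), did not pass. Without the 3 arrays the KO-labelled change was 4.13 (adjusted p = 0.0226), and with the Hox mean in the model it was 3.02 (adjusted p = 0.00473). From day 7 to day 12 the changes were -1.92 ± 0.69 (adjusted p = 0.223) and -2.33 ± 0.73 (adjusted p = 0.0537).

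Vnn1 had a WT-labelled change of 2.32 ± 0.90 (adjusted p = 0.167) at day 7, with 4 of the 5 values above the 3 of day 0 and replicate 5 inside their range. Its KO-labelled change of -0.78 ± 0.94 turned to 0.81 with the Hox mean in the model and to 1.94 without the 3 arrays. Pdk4 likewise had -1.84 ± 0.79 under the KO label as reported and 0.45 without the 3 arrays, and neither value passed. For these genes the sign of the KO-labelled change depended on which day 0 arrays were used.

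**Figure D4:**
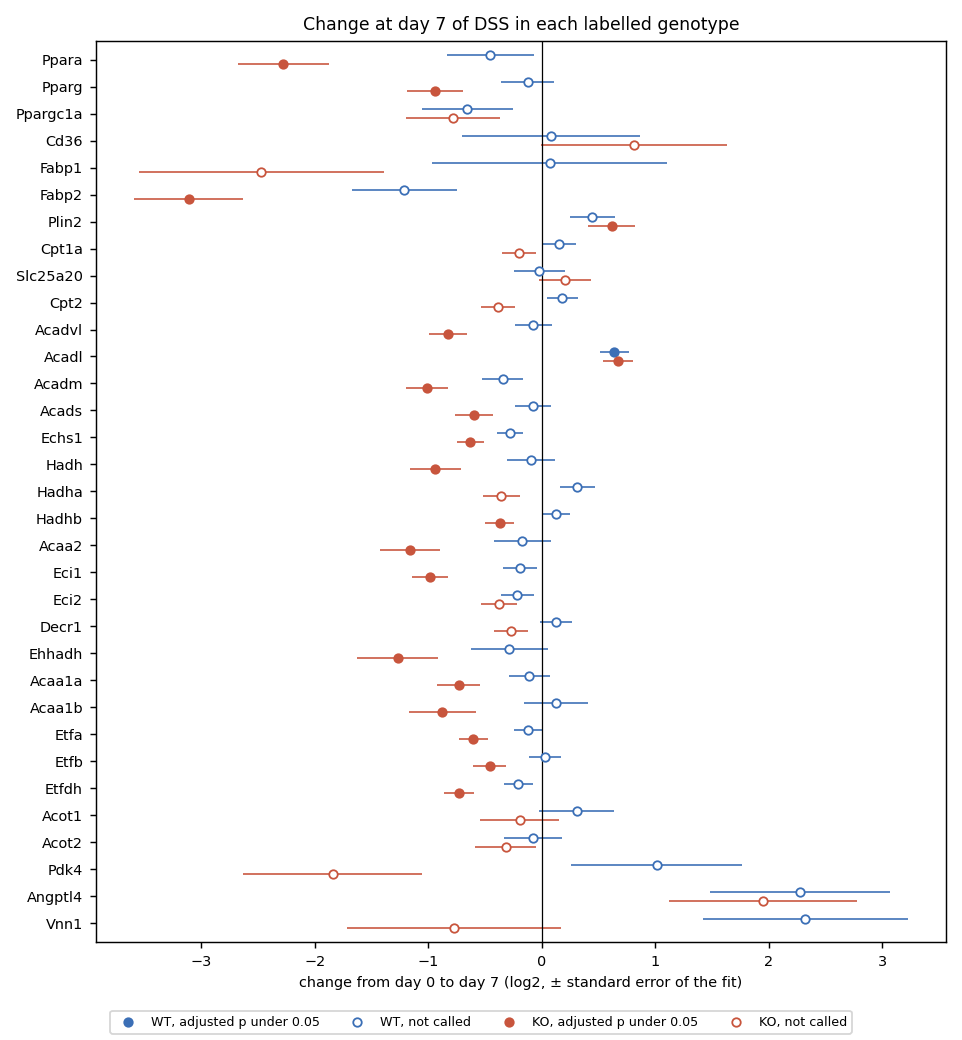
The horizontal axis is the log2 change from day 0 to day 7 with its standard error, and each row a gene in the order of roles; blue is the WT label and red the KO label, and filled points passed an adjusted p of 0.05. Acadl is filled in both colours at 0.64 and 0.67, while 17 red points are filled on the negative side.

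Between the labels themselves no gene of the 33 passed on any day. Before DSS 32 of the 33 were higher in the KO-labelled mean, with 1 lower and a median difference of 0.36, and 10 had an unadjusted p under 0.05 in limma. Over all genes, 1268 of 25499 had an unadjusted p under 0.05 and 0.00392% passed after adjustment. Values did not overlap for 18 of the 33, all higher under the KO label, beside 10.5% of all genes. Replicates 1, 2 and 3 of KO day 0 exceeded every WT day 0 array in 32, 30 and 19 of the genes. The largest differences were in Pdk4 (2.91 ± 0.84), Vnn1 (2.45 ± 1.01) and Fabp1 (1.82 ± 1.16), carried by replicates 1 and 2. In the single KO-labelled array left without the 3 arrays, 8 of the 33 were lower than in the WT-labelled mean. Without replicate 3 of KO day 0, Pdk4 passed, at 4.06 (adjusted p = 0.0309).

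At day 7, 25 of the 33 were lower in the KO-labelled mean, with a median difference of -0.25. In limma 13 had an unadjusted p under 0.05, beside 4207 of all 25500 genes. None of the 33 passed after adjustment, beside 0.549% of all genes. Eci1 came nearest, at -0.52 ± 0.14 (adjusted p = 0.0737), followed by Acadm at -0.45 ± 0.17 (adjusted p = 0.18). The comparison turned on replicate 3 of the WT-labelled arrays, which was the lowest of its group in Acadm, Eci1, Ppara, Hadh and Echs1 and lay inside or below the span of the KO-labelled arrays. Without it 7 genes passed, all lower under the KO label (Eci1 -0.67, Acadm -0.61, Echs1 -0.36, Acadvl -0.49, Hadh -0.66, Hadha -0.47 and Acaa2 -0.71), and without replicate 1 of KO day 7 there were 2. The 7 were the most of any fit that left out 1 array, and the share over all genes in it is not given here. Replicate 3 of WT day 7 had its group's highest macrophage (1.82) and neutrophil (1.25) marker means and lowest epithelial mean (6.36). The part of this in the calls was not tested. With the slide as a block, Eci1 passed, at -0.56. At day 12 the median difference was -0.07, and 2 genes had an unadjusted p under 0.05 in limma, beside 2256 of all 25500 genes. After adjustment 0.0706% of all genes passed.

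The change from day 0 to day 7 was more negative under the KO label than under the WT label in 29 of the 33 genes. The median of this difference was -0.52, and 20 genes had an unadjusted p under 0.05 in limma, beside 2947 of all 25499 genes. None of the 33 passed after adjustment, beside 0.00392% of all genes. Eci1 had -0.79 ± 0.22 (adjusted p = 0.24) and Ppara -1.83 ± 0.56 (adjusted p = 0.26). So the fall under the KO label was not shown to differ from the WT-labelled change with all arrays in. Without replicate 3 of WT day 7, 6 passed: Eci1, Acadvl, Hadha, Ppara, Hadh and Acadm. These were the most of any fit that left out 1 array, and the share over all genes in it is not given here. The corresponding difference from day 7 to day 12 had a median of 0.09. In limma 2 genes had an unadjusted p under 0.05, beside 1965 of all 25500 genes. None was called, beside 0.00784% of all genes.

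Over the 5 days of water few of these genes moved. From day 7 to day 12 Acadm and Eci1 rose and Acadl fell under the KO label, as given above, 30 genes did not pass, the median change was 0.02 and 7.69% of all genes passed. Under the WT label none passed over the same days, beside 0.486% of all genes. In limma 6 had an unadjusted p under 0.05, beside 3344 of all 25500 genes. Against day 0, the WT-labelled arrays of day 12 had a median of -0.15 and none called, beside 1.73% of all genes. There 3 had an unadjusted p under 0.05 in limma, beside 3393 of all 25499 genes. Without the 4 arrays that held pancreatic RNA (2 of them KO day 7) none of the 3 KO-labelled calls from day 7 to day 12 passed. The count of 3 was 5 without replicate 1 or 3 of WT day 7 or replicate 1 of KO day 7, and 1 without replicate 2 or 4 of KO day 7 or replicate 2, 3 or 5 of KO day 12.

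Against day 0 the KO-labelled arrays of day 12 had 10 genes that fell, with a median of -0.55 and 6.94% of all genes passing: Fabp2, Fabp1, Ppara, Acot2, Eci2, Acadvl, Etfa, Etfb, Etfdh and Eci1. The comparisons of day 7 and day 12 with day 0 share the 3 KO-labelled day 0 arrays. Fabp2 changed by -2.39 ± 0.46 (adjusted p = 0.00371) and Ppara by -1.77 ± 0.38 (adjusted p = 0.00828). None of the 10 passed with the Hox mean in the model, where Fabp2 was at -1.56 (adjusted p = 0.103) and Ppara at -0.93 (adjusted p = 0.186), nor without the 3 arrays, where they were at -1.85 (adjusted p = 0.271) and -1.23 (adjusted p = 0.135). Acadvl and Eci1 changed by -0.68 ± 0.16 (adjusted p = 0.0132) and -0.52 ± 0.15 (adjusted p = 0.0383), with -0.46 (adjusted p = 0.225) and -0.37 (adjusted p = 0.35) with the Hox mean and -0.44 (adjusted p = 0.578) and -0.47 (adjusted p = 0.46) without the 3 arrays. The count was 1 without replicate 1 of KO day 0, 3 without replicate 2, 17 without replicate 3 and 16 without replicate 1 of WT day 7.

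At day 7 the KO-labelled count of 19 was 16 with the Hox mean in the model, 14 of them among the 19, and 5 without the 3 arrays, 4 of them among the 19 (Fabp2, Eci1, Acadl and Ppara). All 19 kept their sign in both. Leaving out 1 array at a time, Hadhb lost its call in 20 of 25 fits, Acaa1b in 7, Plin2 in 6, Etfb in 5 (each of these 3 lost it without replicate 1 and without replicate 2 of KO day 0), Pparg and Acads in 2 each (replicate 1 or 2 of KO day 0) and Ehhadh in 1 (replicate 1 of KO day 0). The KO day 0 array left when the 3 are set aside, replicate 3, lay above all 4 day 7 arrays in 16 of the 17 genes that fell. Since these genes were chosen by a comparison that holds that array, this is a description, and over all genes that fell the share was 95.1%. Within slides, the median change of the 33 was -0.62 on the slide with replicates 2 and 3 and -0.78 on the slide with replicate 1. Over all genes these medians were -0.169 and -0.115. Each slide held 1 KO day 7 array, and its day 0 side included an array high in proximal Hox genes. So these medians cannot separate the day from that difference.

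**Figure D5:**
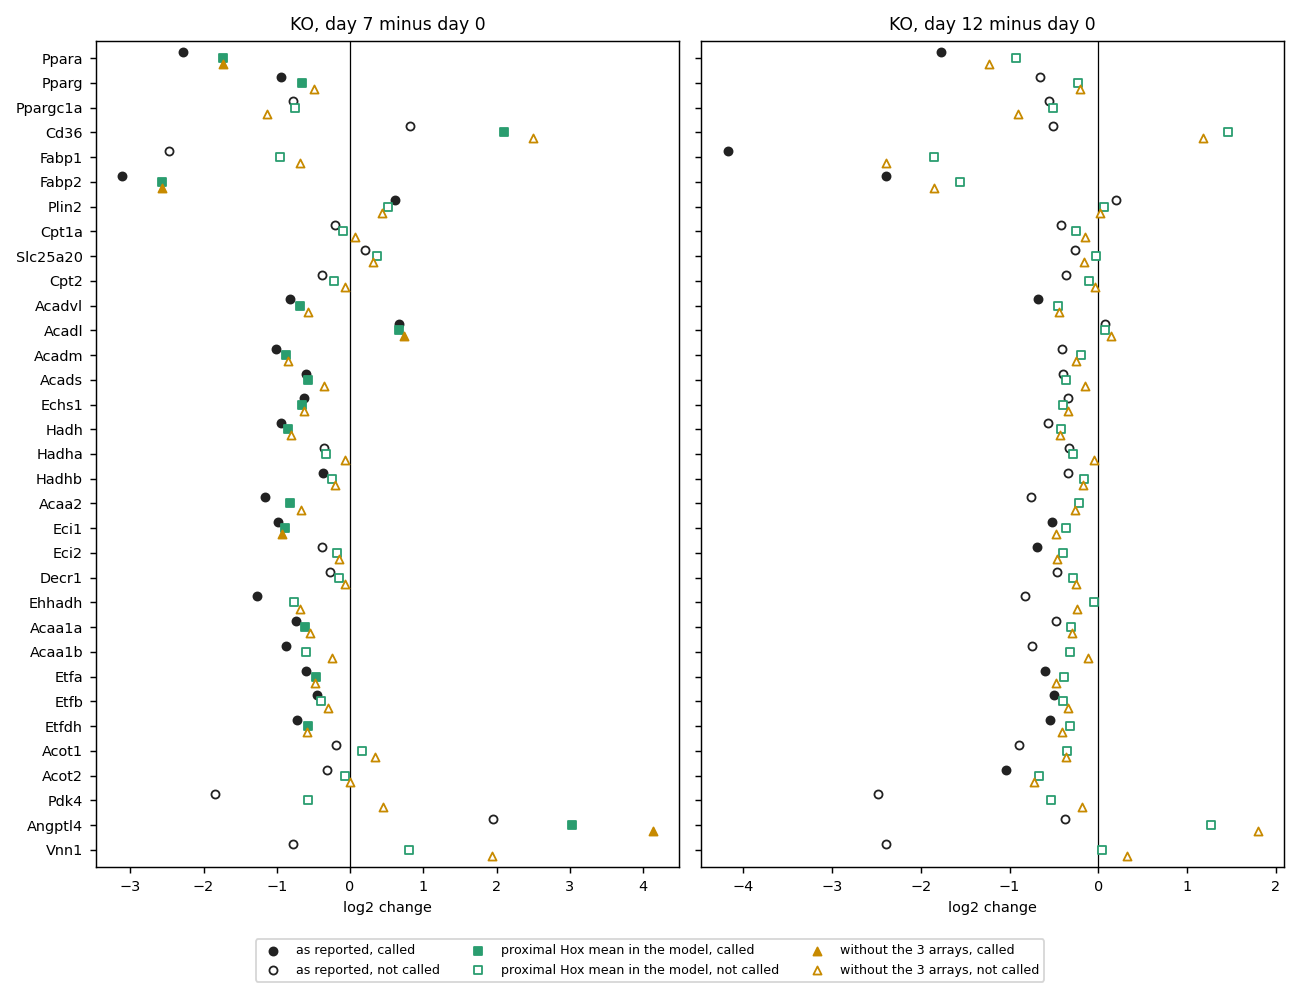
The horizontal axes are the log2 changes under the KO label from day 0 to day 7 (left) and to day 12 (right), and each row is a gene. Black is the fit as reported, green the fit with the proximal Hox mean as a term and amber the fit without the 3 arrays; filled points passed. Most enzymes keep their fall at day 7 when the Hox mean is added. Without the 3 arrays the 17 genes that fell stay negative at day 7, but most amber points are open. At day 12 no green or amber point is filled.

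Markers of other cells moved at the same time. From day 0 to day 7 under the KO label 12 of 13 macrophage genes rose, as did 9 of 12 neutrophil genes and 9 of 10 endothelial genes, while 1 epithelial gene rose and 4 fell of 18. Of 11 smooth muscle genes 2 fell and of 12 fat-cell genes 3 fell, and none of either list rose. The median change was -1.02 for the smooth muscle genes, whose summed level was 337 to 516 at day 0 and 134 to 325 at day 7, without overlap, and -0.29 for the fat-cell genes, whose summed level was 133 to 223 and then 82.7 to 196, with overlap. The summed macrophage level was 52.1 to 62.6 times the 75th percentile at day 0 and 98.3 to 173 at day 7, without overlap. The mean log2 level of the neutrophil genes was -4.11 to -2.99 at day 0 and 1.11 to 1.78 at day 7. The summed epithelial level was 3890 to 4250 and then 3070 to 4700, with overlap. Under the WT label 2 macrophage and 6 neutrophil genes rose, and 1 epithelial gene rose and 1 fell. The part of these cells in the changes of the 33 was not tested, and in bulk colon tissue fewer cells of a type and less RNA per cell cannot be told apart. Pancreatic genes were high in 4 arrays, and without them 13 of the 33 were called at day 7 under the KO label.

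Neighbouring pathways at day 7 under the KO label gave the following counts, to be read beside the 19.6% of all genes that passed in that comparison. Of 20 citric acid cycle genes 17 fell and none rose, among them Pdhb (-0.67 ± 0.09), Dld (-0.71 ± 0.11) and Idh3b (-0.63 ± 0.10), subunits of the dehydrogenases that feed and run the cycle. Of 23 further mitochondrial oxidation genes 10 fell, with Acsl3, which activates fatty acids, at -1.34 ± 0.20 and Pccb, of propionyl-CoA carboxylase, at -0.96 ± 0.17. Of 21 further peroxisomal genes 9 fell, with the transporter Slc27a2 at -1.88 ± 0.37. None of these lists had a gene that rose. Of 24 nuclear receptor partners 11 fell, among them the deacetylase Sirt3 (-0.79 ± 0.14). Counts for these lists with the Hox mean in the model or without the 3 arrays are not given here. The mean level of the peroxisomal list was 1.832, 1.795 and 1.54 in replicates 1, 2 and 3 of KO day 0. That of the citric acid cycle list was 5.355, 5.374 and 5.342 in the same arrays.

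Of 26 other PPAR targets only 3 fell and none rose under the KO label at day 7, beside 19.6% of all genes. Among the 3 were Ucp3 (-0.60 ± 0.14) and Ucp2 (-0.61 ± 0.17), carriers of the inner mitochondrial membrane. Under the WT label the counts at day 7 were 3 citric acid cycle genes and 2 mitochondrial genes that fell, no peroxisomal gene in either direction, and 1 nuclear receptor partner that rose, beside 4.32% of all genes. At day 12 under the KO label 10 citric acid cycle, 4 mitochondrial and 5 peroxisomal genes were below day 0 and none was above, beside 6.94% of all genes. All the KO-labelled counts here use the same 3 day 0 arrays. In replicates 1, 2 and 3 of them the mean level of the other PPAR targets was 1.005, 0.684 and -0.065. A difference between the lists was not tested.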

How the data were processed

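Total colon RNA (100 ng per array, RIN above 7, per the labels' protocols) was labelled with Cy3 and read on 25 one-colour Agilent arrays lying on 4 slides. The deposited intensity per spot is the processed signal of Agilent Feature Extraction 10.7.3.1, already background-subtracted per the file headers. The deposited log2 value table of 33418 probes served as an alternative, and the labels do not state its scaling. Its columns correlated with the arrays' own log2 signals at 0.983 to 0.992 and had medians of 7.91.

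From the intensities, log2 values minus each array's 75th percentile over non-control spots were computed. Outlier spots were left out, repeated spots averaged, probes kept when well above background on at least 3 arrays, and the brightest probe taken per gene, which left 36356 probes and 25500 genes. 46.5% to 67.1% of probes were well above background per array, and the number of arrays limits the precision. The 33 genes have 42 probes, and 7 of them have several.

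limma 3.58.1 (R 4.3.3) fitted 1 model of 6 groups with 11 contrasts. Errors on changes are standard errors of that fit. It was tested on simulated data. Nothing in the labels says more of the replicates than that they are separate mice, whose spread the p-values measure. The design names 5 KO mice at day 7, and the array beyond the 4 was not analysed here. The members, the lists of other genes and the tests were chosen with earlier results of these data known. Values in every array are given for genes that passed in at least 1 comparison, and neighbouring pathways name up to 3 genes with the smallest adjusted p per list. Some results on those pathways are not reported here. Alternatives were another background correction, quantile scaling, the deposited table, other filters, all probes averaged, slide or replicate number as a block, only the groups compared, the proximal Hox mean or the adipocyte mean as a term (the last chosen after seeing the data), and leaving out arrays.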

Additional observations from a re-analysis of the deposited data

Results flagged for a closer look

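In each group of 4 or 5 arrays the highest or lowest value was compared with the rest by Dixon's test at the 95% level. Over 132 pairs of gene and group, 10 values stood apart, and chance alone marks about 1 in 20. In the WT-labelled arrays of day 12, replicate 4 was far above the others in Pparg (4.23, next 3.92) and Etfa (5.16, next 5.02), and replicate 1 in Echs1 (4.62, next 4.41) and Etfb (6.61, next 6.48). In the KO-labelled arrays of day 12, replicate 2 was far below in Fabp2 (4.35, next 6.34), replicate 4 was far below in Cpt2 (4.33, next 4.61), and replicate 1, which also held pancreatic RNA, was far above in Hadh (5.18, next 4.59). At day 7, replicate 3 of the WT label was far below in Echs1 (3.88, next 4.38), replicate 3 of the KO label was far above in Hadhb (5.15, next 4.96), and replicate 1 of the WT label was far above in Acot2 (-2.05, next -3.11).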

How the results depend on the processing

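Leaving out the 3 arrays high in proximal Hox genes gave 4 instead of 1 at day 7 against day 0 under the WT label, 5 instead of 19 under the KO label, 6 instead of 3 from day 7 to day 12 under the KO label, and 0 instead of 10 at day 12 against day 0. The Hox mean as a term gave 2, 16, 5 and 0 in the same order, and the adipocyte mean, chosen after seeing the data, gave 3, 21, 4 and 5. Of the 2 under the WT label with the Hox mean, 1 rose and 1 fell. Fitting only the groups compared gave 0 for the WT label and 12 for the KO label at day 7, and 1 between labels at day 12. From day 7 to day 12 under the KO label the count was 5 with normexp correction, 5 with the filter of 13 arrays, 1 with quantile scaling, 1 with no filter and 0 without the 4 arrays with pancreatic RNA. The deposited table gave 1 in place of 0 from day 7 to day 12 under the WT label, and the slide block 1 in place of 0 between labels at day 7.

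Leaving out 1 array at a time gave 1 to 2 genes at day 7 against day 0 under the WT label (2 without replicate 1 or 5 of WT day 7), 13 to 21 under the KO label, 1 to 5 from day 7 to day 12 and 1 to 17 at day 12 against day 0 under the KO label. It gave 0 to 1 between labels at day 0, 0 to 7 at day 7 and 0 to 6 for the difference in the change to day 7, with the 7 and the 6 both without replicate 3 of WT day 7.

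No call turned its sign in any alternative: of 1254 values, 1061 kept their call and 193 lost it. Of 12540 uncalled values over all comparisons and alternatives, 347 changed sign and 99 passed. Values named in the text that turned include Cpt1a (0.067), Pdk4 (0.45) and Vnn1 (1.94) at day 7, Vnn1 at day 12 (0.33) and Vnn1 between labels at day 0 (-0.27), all without the 3 arrays. With the Hox mean Vnn1 turned to 0.81 at day 7 and 0.046 at day 12 under the KO label, and Fabp1 to -0.30 between labels at day 0. Slc25a20 turned to -0.008 without the arrays with pancreatic RNA, Vnn1 at day 7 ranged from -2.14 to 0.23 and Cd36 from -0.026 to 1.41 over the fits that left out 1 array. With the slide block Acadl turned to -0.024 at day 12 against day 0 under the KO label and to -0.087 in the difference of its changes, which ranged from -0.020 to 0.105 over those fits.

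Replicate numbers did not pair the arrays: over 54 pairs of equal number the correlation of deviations from the group means was -0.45 to 0.68, with a median of 0.04. The replicate block gave 16 called genes instead of 19 at day 7 and 9 instead of 10 at day 12 against day 0 under the KO label.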
